A study of Homo sapiens with 6 samples.

Results

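The miR-378 family was examined as 7 of the 2588 entries of the deposited miRNA count table, hsa-miR-378a-3p, hsa-miR-378a-5p, hsa-miR-378c, hsa-miR-378d, hsa-miR-378f, hsa-miR-378g and hsa-miR-378i (written below without the prefix for the species). They were chosen by name, as both arms of miR-378a and its near-identical relatives, not by a measured value. Earlier results of these data were known when the members, lists and tests were chosen. The libraries come from Caco-2 cells, an established line from a human colorectal adenocarcinoma, grown without any treatment or genetic change. Small RNA was sequenced from 3 input samples and from 3 samples immunoprecipitated with an antibody against N7-methylguanosine (m7G-RIP), a guanosine base with a methyl group on its N7 position. In the study's protocol the RNA is decapped and heat-denatured before the antibody is added, the input is an aliquot of that RNA, and bound RNA is eluted with 7-methyl-GTP. The input also receives 7-methyl-GTP and the same clean-up. Both groups represent a single cell line. Whether the replicates came from separate cultures is not stated, so that p-values measure the spread between these libraries, which may be technical. No library made with a control immunoglobulin was analysed here.

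A hairpin precursor is cut by DROSHA and DICER into a duplex, of which usually 1 strand, or arm, is kept by an Argonaute protein, and the bases at positions 2 to 8 from the 5′ end, called the seed, select the target mRNAs. The gene MIR378A lies within PPARGC1B, which encodes the transcriptional coactivator PGC-1β, and both arms are known for their links to mitochondrial energy use. miR-378a-3p, the main arm, represses carnitine acetyltransferase, whereas miR-378a-5p, the minor arm, has been described as a repressor of the oestrogen-related receptor ERRγ and of GABPA. The relatives with a letter come from other hairpins and are named for their likeness to miR-378a-3p.

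The mature sequences are shown because the counts of these entries can only be told apart by a few bases. They are given 5′ to 3′ from RefSeq (GRCh38.p14), with the seed in capitals, for the 6 members that the table holds.
miR-378a-3p: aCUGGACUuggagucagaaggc
miR-378c: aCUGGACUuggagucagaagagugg
miR-378f: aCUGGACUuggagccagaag
miR-378i: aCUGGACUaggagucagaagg
miR-378g: aCUGGGCUuggagucagaag
miR-378a-5p: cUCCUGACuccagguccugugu
The first 4 share the seed CUGGACU. Counted from the 5′ end of miR-378a-3p, miR-378g differs by A6G, which lies in the seed, miR-378i by U9A and miR-378f by U14C. miR-378c is identical to miR-378a-3p over the first 20 bases and then differs by G21A and C22G, so that a read of 20 bases or fewer from its 5′ end matches both. miR-378a-5p, from the opposite arm, has the seed UCCUGAC and does not align with them. miR-378d is named only.

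In GRCh38 (GENCODE release 44) the hairpin of MIR378A spans chromosome 5, 149732825 to 149732890, plus strand, within an intron of PPARGC1B, a gene of the same strand. Within it miR-378a-5p spans 149732829 to 149732850 and miR-378a-3p 149732867 to 149732888. MIR378C, on chromosome 10 from 130962588 to 130962668 on the minus strand, and MIR378F, on chromosome 1 from 23929070 to 23929147 on the plus strand, overlap no other annotated gene. MIR378G, on chromosome 1 from 94745860 to 94745900 on the minus strand, lies in an intron of SLC44A3-AS1. MIR378I, on chromosome 22 from 41923222 to 41923297 on the minus strand, overlaps an exon of TNFRSF13C, which is transcribed from the same strand. miR-378d can come from more than 1 hairpin gene; MIR378D1 lies on chromosome 4 from 5923275 to 5923328 on the minus strand, in an intron of C4orf50.

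Input libraries held 16466178 to 19628046 counts each and m7G-RIP libraries 1654102 to 3105129. Levels are given as CPM, counts scaled to a common library size after correction with TMM factors. A floor of 3 counts in a library equalled 0.235 to 0.262 CPM (input) or 0.675 to 1.1 CPM (m7G-RIP), for counting error only. The cell line was checked against 6 miRNAs of intestinal and epithelial cells, such as miR-192-5p and miR-200c-3p, and all 6 exceeded 10 CPM in every input library. Of 10 miRNAs of other cell types, 3 did (miR-1-3p, miR-133a-3p and miR-143-3p), whereas miR-122-5p and miR-223-3p were at 0 in every input library. Summed over the list, these 10 gave 862 to 939 CPM in input libraries and 631 to 914 CPM in m7G-RIP libraries, so they did not exceed 939 CPM in any library; their part in any result was not tested.

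The first question was whether the family is gained or lost in m7G-RIP. The filter asked for at least 1.02 CPM of the total counts in 3 libraries. The 6 members other than miR-378f exceeded this in every library, and all 6 were called lower in m7G-RIP by edgeR's quasi-likelihood test of 3 m7G-RIP against 3 input libraries, at an adjusted p under 0.05 over the 800 miRNAs tested. miR-378f passed through 2 input libraries and 1 m7G-RIP library with 2 counts, so that the filter itself leaned on the group where it was higher. Its call, also lower, is given for completeness and makes 7 of 7. No member was higher (0, also at an unadjusted p under 0.05 and in DESeq2's Wald test). For comparison, 38.1% of all miRNAs tested were called lower and 40.1% higher. The log2 enrichment (m7G-RIP over input, 0 for no difference) had a median of -2.59 over these 6 members, from -3.28 to -1.43, and of -2.49, the value of miR-378f, over all 7, beside a median of 0.16 over all miRNAs tested. The zero of this scale depends on how libraries of different composition are scaled. Total counts raised the log2 enrichment of the miRNAs tested by a median of 1.09. Then 4 of the 7 members were called lower, miR-378a-3p, miR-378a-5p, miR-378c and miR-378d. Under this scaling 198 of all 800 miRNAs tested were called lower and 442 higher.

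miR-378a-3p dominated the family. It had 134843, 137985 and 129838 counts in input replicates 1 to 3, which equals 11496, 10810 and 11330 CPM and made it the 17th most abundant entry of the input. In m7G-RIP it had 14140, 15034 and 9371 counts, or 3433, 3385 and 3453 CPM, and ranked at 29. The groups did not overlap, and the spread within m7G-RIP was small, with a coefficient of variation of 1.01%. The mean was 11212 ± 358 CPM in the input and 3423 ± 34.6 CPM in m7G-RIP (SD, n = 3 each). This is a 3.28-fold fall, or -1.71 ± 0.13 (SE) on the log2 scale, at an adjusted p of 5.25e-08 in edgeR's test. Scaled by total counts, the log2 value was -0.61. Summing all 3p entries named miR-378 into 1 feature before the fit gave -1.81.

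miR-378a-5p, released from the same hairpin, was far less abundant. It gave 1028, 1008 and 993 input counts (87.6, 79 and 86.6 CPM) and 48, 52 and 24 in m7G-RIP (11.7, 11.7 and 8.84 CPM). The lowest input library was thus more than 6 times above the highest m7G-RIP library. It fell 7.77-fold, with a log2 value of -2.96 ± 0.22 (SE) and an edgeR adjusted p of 4.14e-08.

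miR-378c and miR-378d were the next most abundant members after the main arm. For miR-378c the levels were 389, 387 and 436 CPM in the input against 40.3, 50 and 33.9 CPM in m7G-RIP, on 4559, 4936, 4991, 166, 222 and 92 counts. miR-378c fell 9.69-fold (log2 -3.28 ± 0.18 SE, adjusted p of 2.97e-09 in edgeR's test). For miR-378d they were 256, 243 and 230 CPM in the input against 25.7, 29.3 and 19.2 CPM in m7G-RIP, on 3001, 3102, 2639, 106, 130 and 52 counts. The fall was 9.73-fold (log2 -3.28 ± 0.20 SE, adjusted p of 5.03e-09 in edgeR's test). Both entries were highest in replicate 2 and lowest in replicate 3 among the m7G-RIP libraries, and no m7G-RIP library came near the input.

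miR-378g, the member with the altered seed, had the fall nearest to 0. It had 505, 516 and 527 input counts (43.1, 40.4 and 46 CPM) and 71, 70 and 40 in m7G-RIP (17.2, 15.8 and 14.7 CPM). The groups did not overlap, and the fall was 2.70-fold (log2 -1.43 ± 0.22 SE, edgeR adjusted p of 5.34e-05). Scaled by total counts the log2 value was -0.35 and no longer called (edgeR adjusted p of 0.16), so the call of miR-378g depends on the scaling.

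The 2 rarest members were measured with less precision. miR-378i had 97, 73 and 57 input counts (8.27, 5.72 and 4.97 CPM) and 5 in each m7G-RIP library (1.21, 1.13 and 1.84 CPM). It fell 4.64-fold (log2 -2.22 ± 0.47 SE), with an edgeR adjusted p of 0.000716, which was 0.0531 when scaled by total counts. miR-378f had 17, 23 and 18 input counts and 1, 0 and 2 in m7G-RIP, at or below the floor of 3 counts in each of these libraries. On summed counts, 58 against 3, it was 6.06-fold lower, with an exact 95% counting interval from 1.97-fold to 30.3-fold. Its adjusted p of 0.0137 (edgeR's test) rose to 0.0504 without m7G-RIP replicate 2, the library with no count, and was 0.154 under total counts and 0.0812 under upper-quartile factors. Without any 1 of the input libraries miR-378f did not pass the filter. Reads without molecular identifiers are not independent molecules, so this interval covers counting error only.

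**Figure D1:**
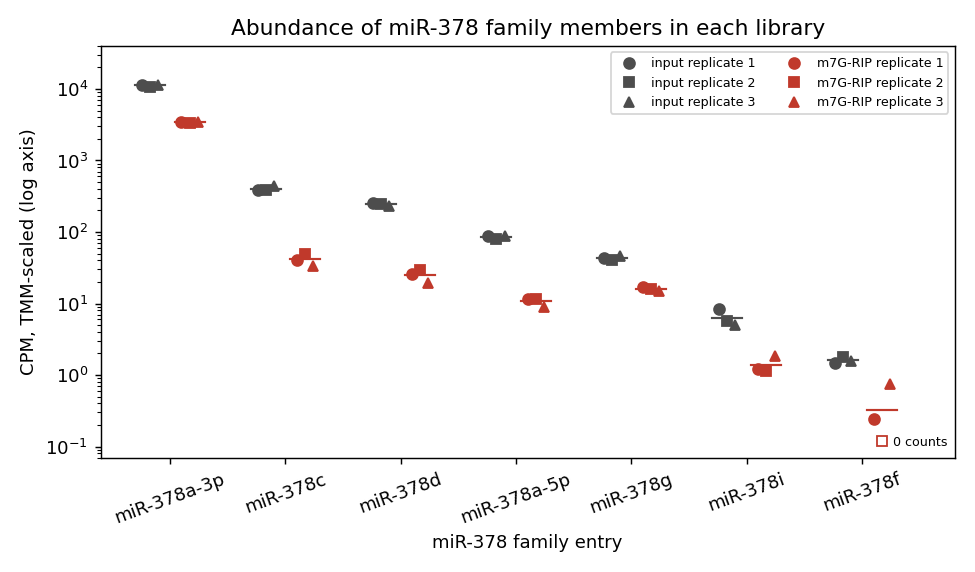
CPM of each member in each library on a log axis, with input in grey, m7G-RIP in red, a marker shape per replicate and a line at the mean of 3; the open square is the m7G-RIP library with 0 counts of miR-378f, drawn at an arbitrary height. For every member the red points lie below the grey ones, from 11212 down to 3423 CPM for miR-378a-3p and from 43.2 down to 15.9 CPM for miR-378g. The red points of miR-378f rest on 1, 0 and 2 counts. How many of all miRNAs tested separate in this way was not counted, and 38.1% of them were called lower.

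In the input the order of the levels was miR-378a-3p, miR-378c, miR-378d, miR-378a-5p, miR-378g, miR-378i and miR-378f, and no neighbours in this order overlapped between libraries. Since a small RNA read spans the whole miRNA, no correction for length was applied. In m7G-RIP miR-378g (15.9 ± 1.26 CPM, SD, n = 3) stood above miR-378a-5p (10.7 ± 1.64 CPM, SD, n = 3), the reverse of the input, where they had 43.2 ± 2.78 and 84.4 ± 4.75 CPM (SD, n = 3 each). The other members kept their places.

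**Figure D2:**
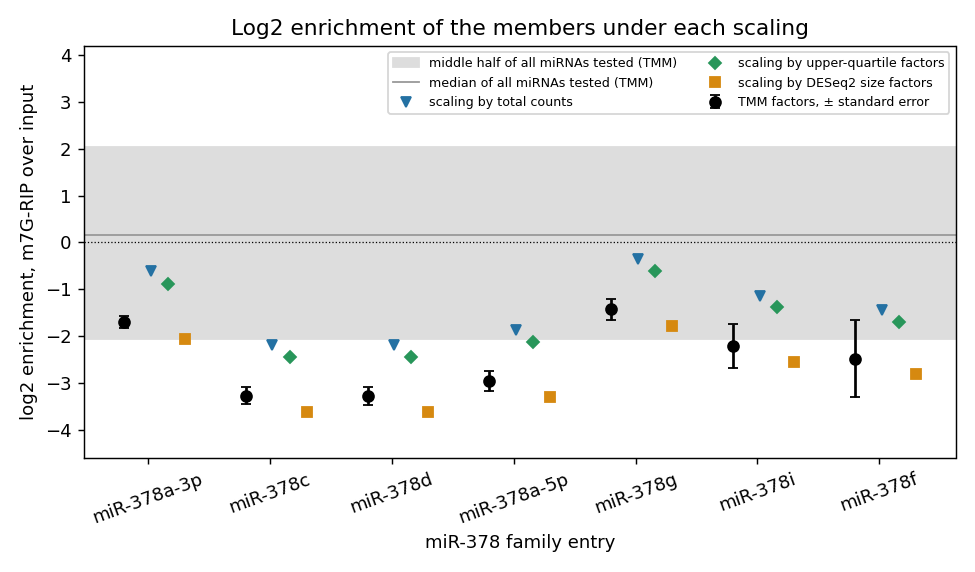
Log2 enrichment of m7G-RIP over input for each member, with TMM factors (black, ± standard error) and with 3 other scalings, over the interquartile range and the median of all miRNAs tested. All members lie below 0 under every scaling shown; miR-378g and miR-378a-3p are nearest to 0, at -0.35 and -0.61 with total counts.

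The second question was whether the members moved alike. Here each miRNA was set against miR-378a-3p of the same library by using the count of miR-378a-3p as the library size in the same edgeR fit, which removes the choice of scaling. Relative to miR-378a-3p, 18.8% of the other 799 miRNAs were lower in m7G-RIP and 61.8% were higher. Of the other 6 members, 3 were lower and none was higher (0 by edgeR's test; 0 at an unadjusted p under 0.05).

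miR-378c had 3.38, 3.58 and 3.84 counts per 100 counts of miR-378a-3p in the input and 1.17, 1.48 and 0.982 in m7G-RIP. It fell 2.96-fold relative to miR-378a-3p (log2 -1.56, 95% interval -1.96 to -1.17, edgeR adjusted p of 4.17e-06). miR-378d had 2.23, 2.25 and 2.03 per 100 in the input and 0.75, 0.865 and 0.555 in m7G-RIP, a fall of 2.97-fold (log2 -1.57, 95% interval -2 to -1.15, edgeR adjusted p of 7.43e-06). So miR-378c, which shares its seed and its first 20 bases with miR-378a-3p, fell more than miR-378a-3p did, and so did miR-378d.

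miR-378c and miR-378d kept a like ratio to each other. There were 65.8, 62.8 and 52.9 counts of miR-378d per 100 of miR-378c in the input and 63.9, 58.6 and 56.5 in m7G-RIP, and these ranges overlap.

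The arms of miR-378a also parted. miR-378a-5p had 0.762, 0.73 and 0.765 counts per 100 of the 3p arm in the input and 0.34, 0.346 and 0.256 in m7G-RIP. Relative to the 3p arm it fell 2.37-fold (log2 -1.25, 95% interval -1.72 to -0.77, adjusted p = 0.000154 from edgeR's test). The exact permutation test of the log2 ratio over the 6 libraries gave p = 0.1 (two-sided; adjusted over 2 such tests 0.1), the smallest value that 3 against 3 allows.

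For miR-378g, miR-378i and miR-378f no difference from miR-378a-3p was detected at this depth. miR-378g had 0.374, 0.374 and 0.406 counts per 100 of miR-378a-3p in the input and 0.502, 0.466 and 0.427 in m7G-RIP, so that its ratios were slightly higher in all m7G-RIP libraries, with a log2 difference of 0.28 (95% interval -0.20 to 0.75, edgeR adjusted p of 0.254). Its interval excludes a relative fall of the size seen for miR-378c. The intervals of miR-378i (log2 -0.51, from -1.58 to 0.55) and miR-378f (log2 -0.84, from -2.81 to 1.13) are wide enough to hold both no difference and a fall near that of miR-378c.

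**Figure D3:**
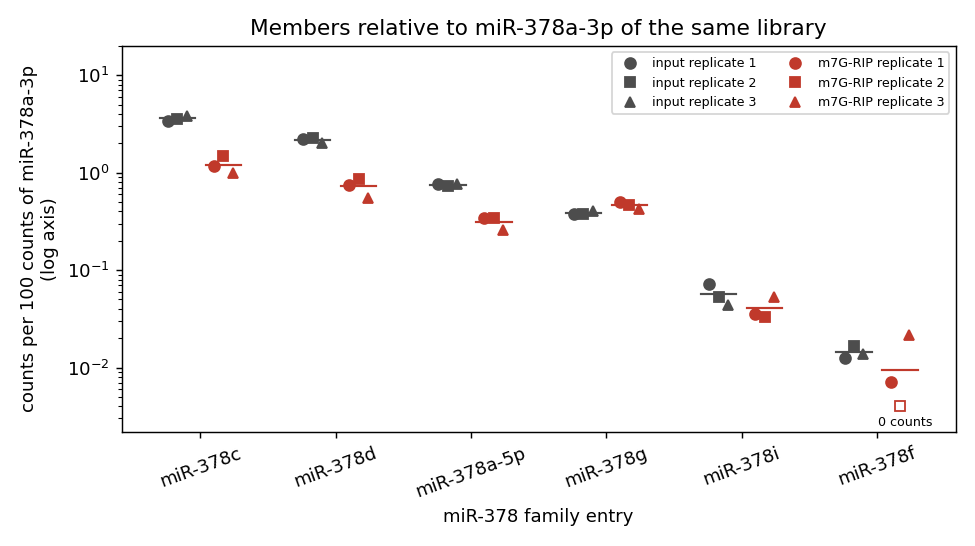
Counts of each other member per 100 counts of miR-378a-3p in each library, log axis, colours and shapes as in the plot of CPM, with lines at the mean of 3 and the open square marking 0 counts. miR-378c, miR-378d and miR-378a-5p drop in m7G-RIP, from means of 3.6, 2.17 and 0.753 to 1.21, 0.723 and 0.314, while miR-378g lies at 0.374 to 0.406 (input) and 0.427 to 0.502 (m7G-RIP).

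Over the whole family, miR-378a-3p took 93.4% to 93.6% of the input counts and 96.9% to 97.8% of the m7G-RIP counts. The family as a whole held 0.865%, 0.752% and 0.844% of all miRNA counts in the input and 0.471%, 0.5% and 0.58% in m7G-RIP (exact permutation test, two-sided, p = 0.1, the smallest value possible; adjusted over 2 such tests 0.1). The groups did not overlap. As a share of counts this fall is smaller than the TMM-based values, since it follows total counts.

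How reads that match several entries were counted decides how far these members are separate measurements. The methods do not state it, but the values bear on it: among the 6 entries whose mature form RefSeq places at 4 loci, 24 of 25 counts above 0 were multiples of 4 (96%), where evenly spread remainders would give 25%. Among entries at 2 loci, 239 of 314 counts were multiples of 2 (76.1%, where 50% would be even). Among entries at 3 loci, 39 of 57 were multiples of 3 (68.4%, where 33.3% would be even). The counts thus leaned to multiples of the number of loci, as when a read is counted once for each locus. This did not hold for every value, and the values at 4 loci come from only 5 entries with counts. The counts of miR-378d, which has more than 1 hairpin gene, were even in 4 of the 6 libraries. A short read that fits both miR-378a-3p and miR-378c may then stand in both rows, and the file does not hold read lengths or sequences from which such reads could be removed. An error at 1 base of a miR-378a-3p read can also give the sequence of miR-378g, miR-378i or miR-378f, whose counts were at most 0.502, 0.0719 and 0.0213 per 100 of miR-378a-3p. The part of shared or misread reads in these values was not tested. The counts of miR-378c, miR-378d, miR-378f, miR-378g and miR-378i as single members are therefore uncertain, whereas miR-378a-5p comes from the opposite arm.

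The study links m7G to guanosine-rich miRNAs, measured on the primary hairpins of miRNAs enriched by both a chemical method and m7G-RIP. Here the guanosine share of the mature sequences was set beside the enrichment in m7G-RIP alone, which is an unlike measure. Of the 800 miRNAs tested, 714 had a sequence in the table, and across them log2 enrichment went with guanosine share (Spearman's rho 0.497, Pearson's r 0.499). These are values across miRNAs, which come from the same 6 libraries and are not independent replicates. The median guanosine share was 27.3%. The 5 members of 3p type with a sequence lay above it, with 36.4% in miR-378a-3p, 40% in miR-378c and miR-378g, 38.1% in miR-378i and 35% in miR-378f, while miR-378a-5p had 22.7%.

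These 3p members thus combined a guanosine share above the median with loss in m7G-RIP. For miR-378a-3p, miR-378i and miR-378f, at 35% to 38.1%, such loss was common among other miRNAs of a like share. Of 149 miRNAs outside the family with 30% to under 40%, 37.6% were called lower and 38.9% higher, with a median log2 enrichment of -0.10. miR-378c and miR-378g, at 40%, belong with the next group. Among the 174 miRNAs outside the family with a guanosine share of at least 40%, the median log2 enrichment was 2.84, 89.1% were called higher and 2.87% lower. Only 1 of these 174 had a log2 enrichment below that of miR-378c, and 3 had one below that of miR-378g. Both members lie exactly at the lower bound of this open-ended group. In the adjoining group, under 40%, 37.6% were called lower and 38.9% higher. These counts therefore depend on where the groups were cut. For miR-378a-3p, 17 of 231 miRNAs with at least its share were lower, and for miR-378a-5p 67 of 482. Both pools include these 174 miRNAs of at least 40%, most of which were called higher. The counts therefore do not compare miR-378a-3p or miR-378a-5p with miRNAs of a like share.

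**Figure D4:**
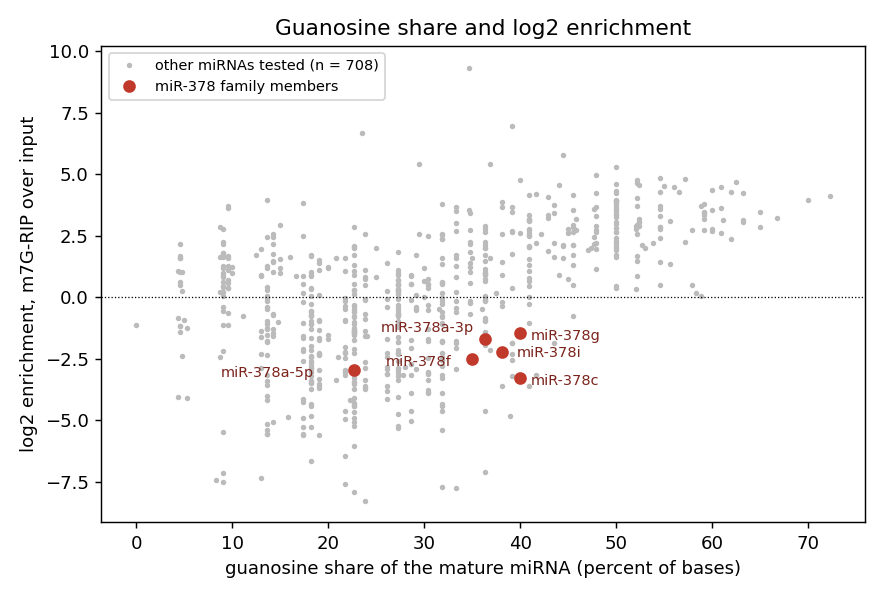
Guanosine share of the mature miRNA (percent of bases) against log2 enrichment of m7G-RIP over input for 714 tested miRNAs, the members in red. miR-378c and miR-378g, at 40%, lie at the lower edge, where the other miRNAs of at least this share have a median of 2.84. This median depends on the cut at 40%.

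In the hairpins the study's loose quadruplex pattern was searched on the transcribed strand, 4 runs of at least 2 G with linkers of 1 to 7 bases. None of the 5 hairpins with a sequence, MIR378A, MIR378C, MIR378F, MIR378G and MIR378I, held it, against 29.2% of all 1560 hairpins in the table. Their guanosine share was 28.2% to 36.8%, where the median of all hairpins was 27%. No match says only that these letters are not in the annotated hairpin.

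Input abundance was also considered, because it differs widely between members. Among the 16 miRNAs outside the family within 1 log2 unit of the input level of miR-378a-3p, 31.2% had a lower log2 enrichment than it, and their median was -0.27. For miR-378c and miR-378d the corresponding shares were 26% of 73 and 24.4% of 82 miRNAs, with medians of -1.05 and -1.02. miR-378g, by contrast, lay in the middle of its 85 neighbours (48.2% lower, median -1.39).

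By profile over the 6 libraries, the miRNA nearest to miR-378a-3p among 261 candidates with a mean log2 CPM of at least 5 was miR-373-3p, at a Euclidean distance of 0.18 in centred log2 CPM. It had almost the same levels, 11230 ± 467 CPM in the input and 3108 ± 46.2 CPM in m7G-RIP (SD, n = 3 each). miR-23b-3p (distance 0.30) and miR-146b-3p (distance 0.35) came next.

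Other miRNAs with known roles in lipid, glucose or energy metabolism were taken as a list of 20. Of these 14 were tested, 13 were lower and none was higher (0 by edgeR's test; 0 at an unadjusted p under 0.05 and in DESeq2's Wald test), with a median log2 enrichment of -2.995, beside 0.16 for all miRNAs tested and 38.1% called lower. The 13 calls and this median include miR-33a-5p, with 48, 61 and 59 input counts and 2, 0 and 0 in m7G-RIP. It passed the filter through the input libraries, the group where it was higher, so its call does not stand apart from the filter. With at least 10 counts asked in every library, 12 of the list were lower, beside 175 of all 426 miRNAs tested. Scaled by total counts, 12 were lower and 1, miR-26a-5p, was higher, where 198 of all 800 miRNAs tested were lower and 442 higher. The most abundant of them in the input were miR-148a-3p, a regulator of the LDL receptor, and miR-26a-5p, with overlapping input levels. miR-148a-3p had a log2 enrichment of -4.41 ± 0.19 (SE), and miR-26a-5p, the one not called, of 0.15 ± 0.19 (SE, edgeR adjusted p of 0.482). miR-27b-3p and miR-27a-3p, which repress lipid metabolism genes such as PPARG, had -3.66 and -3.37, miR-30c-5p, a regulator of the lipid transfer protein MTTP, had -2.44, and miR-107, from an intron of the pantothenate kinase gene PANK1, had -1.68. Relative to miR-378a-3p, miR-107 had a log2 difference of 0.029 (95% interval -0.33 to 0.39, edgeR adjusted p of 0.878). miR-103a-3p, a near relative of miR-107, was listed at 0 in every library. Whether this 0 reflects absence from the cells or how reads were counted was not tested.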

How the data were processed

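Small RNA libraries of 3 input and 3 m7G-RIP samples of Caco-2 cells were analysed, grouped by their titles. The authors trimmed adaptors with Trimmomatic, mapped reads to GRCh38 with STAR (the submitters' notes name Bowtie2), allowing several loci and 1 mismatch, and deposited raw counts per mature miRNA of miRBase 22 from featureCounts. The handling of multi-mapping reads is not given in the sources used here.

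Counts were analysed with edgeR 4.0.16 in R 4.3.3: filterByExpr (minimum count 10, minimum total 15), TMM factors, and the quasi-likelihood test with Benjamini-Hochberg adjustment over all 800 miRNAs tested, called at an adjusted p under 0.05. The standard error is the absolute log2 enrichment divided by the square root of F. The CPM are edgeR's. On simulated data (800 miRNAs, 769 tested), 63.1%, 95.2% and 100% of changes of 1, 2 and 3 log2 units were recovered and 4% of calls were false. The simulation gave every miRNA the same dispersion and changed a smaller share of them than was called here. Its rates therefore need not hold for these data. Libraries of a group differed by more than counting noise (chi-square per degree of freedom 17.5 to 105), so none was a copy. DESeq2 1.42.0, other scalings and filters, the replicate block and leaving out each library were alternatives. Python 3.11.15 with scipy 1.17.1, pandas 2.3.3 and matplotlib 3.10.9 did the rest.

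The members, lists and tests were chosen with earlier results of these data known. Named were all 7 members, 5 other relatives, at most 6 of the metabolic list by input level, and the 3 miRNAs nearest in profile. Beyond these, miR-33a-5p and miR-103a-3p of the metabolic list were named for their counts.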

Additional observations from a re-analysis of the deposited data

How the results depend on the processing

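For single members 136 values were recomputed, of which 131 kept both sign and call, 5 kept the sign but lost the call and 0 reversed. The 5 are miR-378f under total counts (-1.44), under upper-quartile factors (-1.71) and without m7G-RIP replicate 2 (-1.96), and miR-378g (-0.35) and miR-378i (-1.13) with total counts, which shift all miRNAs upwards by a median of 1.09. Instead of 7 members, 4 were called lower under total counts, 5 when each library had to hold 10 counts, since miR-378f and miR-378i were then not tested, and 6 to 7 when libraries were left out in turn. Their median log2 enrichment was -1.44 under total counts, -1.71 under upper-quartile factors, -3.10 under the filter of 10 counts, -2.86 in DESeq2's Wald test and -2.94 to -2.23 when libraries were left out. The number that differed from miR-378a-3p, 3, was the same under every alternative run. Over all miRNAs, lower and higher calls numbered 305 and 321 in the report, 198 and 442 under total counts, 227 and 418 under upper-quartile factors, 342 and 281 under DESeq2's size factors, 423 and 320 with no filter, 175 and 182 under the filter of 10 counts, and 235 to 377 and 268 to 341 when libraries were left out. Of the 5 other relatives 1 was called lower, but 2 with no filter, 0 under the filter of 10 counts, 0 without any 1 of the input libraries, where none passed the filter, and 2 without any 1 of the m7G-RIP libraries. In the metabolic list 1 miRNA was higher under each of total counts and upper-quartile factors.

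Same-numbered libraries did not deviate together (correlations -0.014, -0.028 and 0.06), so the numbers were not taken as pairs. With the replicate block 7 members were lower, with a median of -2.50, and 295 and 296 miRNAs were lower and higher; it changed no call of a member. Depth limits miR-378f and miR-378i, with at most 5 counts in any m7G-RIP library.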

Other observations

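Of the 5 other relatives in the count table, miR-378e and miR-378b were rare but present. miR-378e had 29, 36 and 27 counts in the input and 0, 1 and 2 in m7G-RIP, and on summed counts, 92 against 3, it was 9.62-fold lower (exact 95% counting interval 3.19-fold to 47.5-fold). It was the only one of the 5 that passed the filter on low counts, and it did so through the 3 input libraries, the group where it was higher, so its call (lower, edgeR adjusted p of 0.00245) does not stand apart from the filter. Without any 1 of the input libraries it was not tested. miR-378b, which differs from miR-378a-3p by U14G, had 21, 19 and 23 counts in the input and 1, 0 and 1 in m7G-RIP, 9.88-fold lower on summed counts (exact 95% counting interval 2.62-fold to 83.4-fold). Relative to miR-378a-3p the log2 difference of miR-378e was -1.50 (95% interval -3.37 to 0.36, edgeR adjusted p of 0.122), so that no difference was detectable at this depth.

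miR-378h, miR-378j and miR-422a, which differ from miR-378a-3p by 2 substitutions each over the bases they share, had 2, 3 and 1 counts in all input libraries together and 3, 0 and 0 in m7G-RIP. The entries that differ from miR-378a-3p by a single substitution had 17 to 23 (miR-378f), 19 to 23 (miR-378b), 57 to 97 (miR-378i) and 505 to 527 (miR-378g) counts per input library, so that the entry with A6G stood above those with U9A, U14C or U14G.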
